A study of Mus musculus with 2 samples.

Results

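The mucin-type glycosyltransferase genes of the newborn mouse stomach were taken by name. The rule kept protein-coding genes whose symbol starts with Galnt, B3gnt, B4galt, B3galt, C1galt, Gcnt, Fut, St3gal or St6gal, and added A4gnt and B4galnt2. It gave 71 genes of the 69691 features in each gene table and used no measured value. Total RNA had been sequenced from whole stomachs of 2 B6NCrl pups, taken on postnatal day 0, with 1 library for each. Both pups came from the same dam, no treatment or altered gene is named, and sex was not collected. Each library started from 10 ng of RNA longer than 200 nucleotides. The labels thus give 1 group and no contrast, so genes were compared with each other within a pup and each gene was compared between the pups, with no p-value; the spread is that of 2 separate stomachs from 1 litter.

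Mucin-type O-glycans start in the Golgi when a Galnt enzyme attaches N-acetylgalactosamine (GalNAc) to a serine or threonine of the protein. Galactose or N-acetylglucosamine (GlcNAc) is then added to make a core, the core is extended into chains of galactose and GlcNAc, and fucose, sialic acid or another sugar closes the ends. In the stomach such chains make up most of the mass of the mucins that coat the surface and fill the glands. The name of the group is broader than the work of its members, since several of them act mainly on other molecules: Fut8 on N-glycans, B4galt5, B4galt6, B3galt4, B3gnt5 and St3gal5 on glycolipids, and B4galt7 and B3galt6 on the sugar linker of proteoglycans.

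The libraries held 51524479 and 49983574 expected counts in pups 1 and 2. All 12 genes used to check the tissue, which mark glands, surface, forestomach and muscle, were detected, with a median level of 2646 in pup 1 and 2776 in pup 2. Levels are TPM, a measure of transcript abundance scaled for gene length and to a common library total, and each value has a credibility interval deposited with it. That interval covers the error of dividing and counting reads in 1 library, not the difference between animals. In RNA of a whole organ, fewer cells of a type and less RNA per cell cannot be told apart.

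Of the 71 genes, 56 (78.9%) were detected, meaning that neither pup had a TPM below 1, against 61.2% of 21474 protein-coding genes. With the limit raised to 5 there were 37 (52.1%, against 44.6% of protein-coding genes), and with the limit raised to 10 there were 24 (33.8%, against 33.97%), so the share was above that of all protein-coding genes at the lower limits and not at 10. The median member stood at 6.06 in pup 1 and 5.92 in pup 2, beside 3.49 and 3.64 for all protein-coding genes. Summed over the members, the level was 764 ± 12.9 (SD, n = 2). The 5 highest members, Gcnt3, Galnt12, C1galt1c1, Galnt2 and B3gnt3, held 31.6% of that sum in pup 1 and 31.7% in pup 2. The plot of levels by step shows that the detected genes spread over every step, and that the low members lie in all but the group of other caps.

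**Figure D1:**
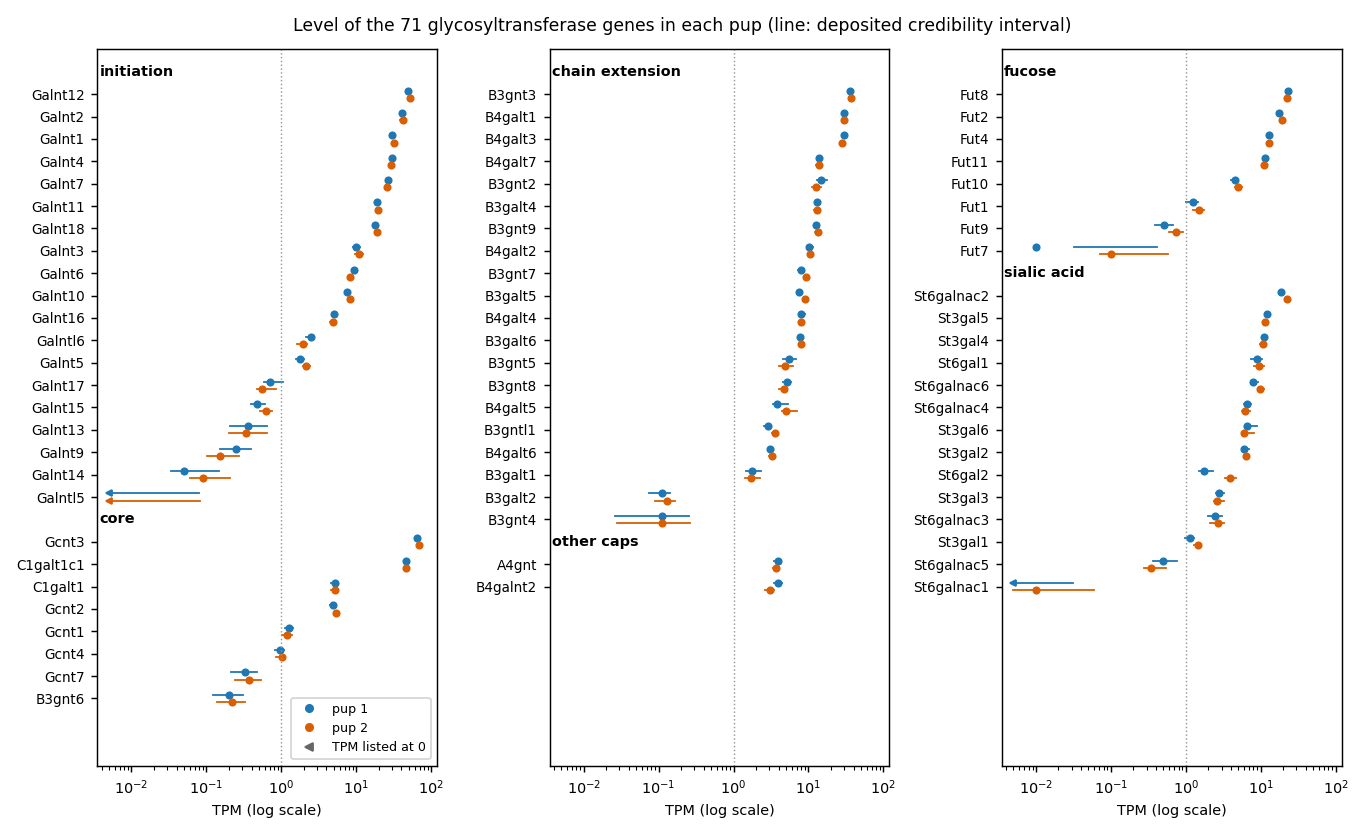
Level of each of the 71 genes in TPM (log scale) in pup 1 (blue) and pup 2 (orange), grouped by step and sorted by mean; lines are the deposited credibility intervals, the dotted line is a TPM of 1 and arrowheads mark a listed 0. Gcnt3 is the highest at 65.5 and 69.6, and 15 genes do not reach a TPM of 1 in both pups.

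The 19 Galnt genes, which start the chains, held 33.4% of the members' summed TPM in pup 1 and 33.2% in pup 2, with 13 of them detected. Galnt12, an enzyme that prefers peptides already carrying GalNAc, led its family at 49.8 TPM in pup 1 and 51.4 TPM in pup 2. Galnt2, one of the broadly expressed isoenzymes that act on bare peptides, followed at 41.4 and 42.1. The intervals of these leading genes were apart in each pup, with Galnt12 higher in both. Galnt1, the other broadly expressed initiator, had 29.7 and 31.9. Galnt4, which acts on partly glycosylated peptides, had 29.97 and 29.2. Galnt7, an enzyme that requires GalNAc already on the peptide, had 26.2 and 25.4. The 5 leading Galnt genes thus comprised both isoenzymes of bare peptides and isoenzymes that fill in around a first GalNAc.

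Galnt11, an isoenzyme known from the modification of Notch and of lipoprotein receptors, stood at 18.97 in pup 1 and 19.4 in pup 2. Galnt18, a less studied relative, stood at 17.6 and 18.7. Galnt3 and Galnt6 are close relatives found in many epithelia, and Galnt3 had 9.89 and 10.8. Galnt6 had 9.47 and 8.17, so that its intervals were 8.88 to 9.85 in pup 1 and 7.65 to 8.56 in pup 2 and did not overlap. Galnt3 lay 1.04 times above Galnt6 in pup 1 and 1.33 times in pup 2, and their intervals were not apart in both; by coding transcripts alone the ratio was 0.881 in pup 1 and 1.12 in pup 2. Below them came Galnt10 (7.59 and 8.27), Galnt16 (5.11 and 4.84), Galntl6 (2.47 and 1.94) and Galnt5 (1.78 and 2.16). The 6 members of this family that were not detected were Galnt17, Galnt15, Galnt13, Galnt9, Galnt14 and Galntl5, with TPM values from 0.71 down to 0. Galntl5 had 0 counts in both pups, which allows a TPM of up to 0.0503 in pup 1 and 0.0523 in pup 2, from counting error alone. The deposited intervals of Galntl5 reached higher, to 0.0793 and 0.0824. Galnt11, the neighbour of Galntl5, starts 1.61 kb away on the same chromosome.

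The 8 genes grouped with the cores held 16.4% and 16.6% of the summed TPM, and 5 were detected. Gcnt2 and Gcnt7 are among these 8 by family name, not by a known part in making a core. Gcnt3, the mucin-type enzyme that adds the GlcNAc branch of cores 2 and 4, was the highest of all members at 65.5 TPM in pup 1 (11378 expected counts) and 69.6 TPM in pup 2 (11617). It lies on chromosome 9 from 70031496 to 70038088 on the minus strand (GRCm38, the same assembly as mm10). Gcnt1, which makes core 2 in leukocytes and other cells, had 1.26 and 1.19, so that Gcnt3 stood 52.0 times higher in pup 1 and 58.5 times in pup 2. Gcnt4, the other core 2 enzyme, had 0.95 and 1.01. Most transcript of the family was of 1 gene: Gcnt3 held 89.9% of the summed TPM of the 5 Gcnt genes in pup 1 and 89.7% in pup 2. Its intervals, 63.4 to 65.7 in pup 1 and 67.3 to 69.8 in pup 2, did not overlap, though the log2 ratio of pup 2 over pup 1 was 0.09. Gcnt7, a relative without a well described function, stood at 0.33 and 0.37.

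C1galt1 and C1galt1c1 work as a pair. C1galt1 adds the galactose of core 1, the common base of most mucin chains, and C1galt1c1 (Cosmc) is the chaperone that C1galt1 needs to fold. C1galt1c1 stood at 45.7 TPM in pup 1 and 45.6 TPM in pup 2, behind only Gcnt3 and Galnt12. C1galt1 had 5.15 and 5.14. The chaperone's transcript therefore stood 8.87 times above that of its client in pup 1 and 8.86 times in pup 2, and for both genes the intervals of the pups overlapped. The core 1 enzyme itself stood below the branching enzyme that acts on its product, since Gcnt3 was 12.7 and 13.5 times higher than C1galt1. B3gnt6, which makes core 3 in gut epithelium, had 0.20 and 0.22, from 19 and 20 counts. Gcnt3 exceeded it by 327 and 316 times, and B3gnt6 was the lowest of the core enzymes.

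Gcnt2, the enzyme of the I blood group that branches chains of galactose and GlcNAc, stood at 4.83 in pup 1 and 5.41 in pup 2. It is known for alternative first exons, each giving an isoform with a different start of the protein, and transcripts of several start sites were present at once. The RefSeq table of promoters (GRCm38.p6, 250 bases before to 50 after each start) held an entry for 53 of the 71 genes (74.6%), too few for a comparison over the whole set. The 3 Gcnt2 starts are printed 5′ to 3′ on the plus strand of chromosome 13, and the 2 of Galnt11 on the plus strand of chromosome 5 are shown with them as a gene with 1 dominant start. Capitals mark CG dinucleotides, which read the same on both strands.
Gcnt2 start 1, chr13:40859518-40859817: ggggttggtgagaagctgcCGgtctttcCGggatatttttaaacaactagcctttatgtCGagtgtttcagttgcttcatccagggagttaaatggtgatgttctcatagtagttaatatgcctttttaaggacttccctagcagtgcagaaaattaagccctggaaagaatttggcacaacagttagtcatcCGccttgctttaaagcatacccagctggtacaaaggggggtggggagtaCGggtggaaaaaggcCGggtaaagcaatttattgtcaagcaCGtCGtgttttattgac
Gcnt2 start 2, chr13:40886508-40886807: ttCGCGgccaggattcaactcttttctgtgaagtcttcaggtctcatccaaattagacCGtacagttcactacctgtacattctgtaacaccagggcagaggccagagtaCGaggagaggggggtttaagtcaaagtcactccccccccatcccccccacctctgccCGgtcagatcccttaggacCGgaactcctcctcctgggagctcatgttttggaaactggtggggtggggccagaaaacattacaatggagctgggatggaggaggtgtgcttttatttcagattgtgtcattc
Gcnt2 start 3, chr13:40917384-40917683: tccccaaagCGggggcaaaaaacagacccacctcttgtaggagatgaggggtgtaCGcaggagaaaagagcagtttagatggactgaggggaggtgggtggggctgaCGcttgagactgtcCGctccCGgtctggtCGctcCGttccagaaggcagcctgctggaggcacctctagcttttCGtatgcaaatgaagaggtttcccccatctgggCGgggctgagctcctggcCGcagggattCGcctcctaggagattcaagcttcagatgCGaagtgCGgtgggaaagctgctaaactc
Galnt11 start 1, chr5:25222622-25222921: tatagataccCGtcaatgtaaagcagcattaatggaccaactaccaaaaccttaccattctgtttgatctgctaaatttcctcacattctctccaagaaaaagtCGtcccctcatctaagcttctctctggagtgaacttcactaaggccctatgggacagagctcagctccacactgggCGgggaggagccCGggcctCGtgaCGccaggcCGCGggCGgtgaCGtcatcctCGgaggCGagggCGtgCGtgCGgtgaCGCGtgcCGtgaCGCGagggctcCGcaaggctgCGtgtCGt
Galnt11 start 2, chr5:25246123-25246422: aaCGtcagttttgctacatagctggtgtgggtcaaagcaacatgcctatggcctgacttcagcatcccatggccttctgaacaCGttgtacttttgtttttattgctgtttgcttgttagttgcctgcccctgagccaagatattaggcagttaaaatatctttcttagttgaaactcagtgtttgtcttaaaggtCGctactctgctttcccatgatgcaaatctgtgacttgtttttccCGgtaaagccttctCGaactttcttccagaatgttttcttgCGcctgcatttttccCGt

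The transcript of 4004 bases, which begins 33 bases before start 3 of Gcnt2, was the main one, at 3.0 TPM in pup 1 and 3.13 TPM in pup 2. The transcript of 4342 bases, which begins 14 bases before start 1, had 1.51 and 1.79. The transcript of 4364 bases had 0.32 and 0.49. It begins 435 bases after the RefSeq start 2, so its own start lies outside the window printed. The intervals of these 3 transcripts were apart within each pup (2.60 to 3.31, 1.23 to 1.78 and 0.201 to 0.458 in pup 1). Both pups thus ranked the transcript of 4004 bases highest and that of 4364 bases lowest, and start 2 itself was not ranked. Start 3 accounted for 62.2% of the gene's TPM in pup 1 and 57.9% in pup 2, and start 1 for 31.2% and 33.1%.

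In Galnt11 the transcript at start 1, 2552 bases long and beginning 10 bases after it, had a TPM of 16.1 (interval 12.2 to 17.8) in pup 1 and 17.8 (13.6 to 18.7) in pup 2. The transcript of 2449 bases at start 2 had 2.75 and 1.58, with an interval in pup 1 from 0.157 to 5.91. Start 1 thus held 85.1% and 91.8% of the TPM, while the level of start 2 was poorly determined. CG dinucleotides numbered 23 at Galnt11 start 1 and 7 at start 2, and 8, 6 and 13 at Gcnt2 starts 1, 2 and 3. Over the 32851 promoters of the table the median was 7, and 94.6% held at least 1. In both genes, which were chosen after their values were seen, the window with most CG belonged to the start with the highest transcript level. In Gcnt1 this held in pup 2 alone. Its window with 3 CG had 53.2% of the TPM in pup 1 and 22.7% in pup 2, and that with 16 CG had 46.0% and 78.2%. In Fut8 and B3galt5 no transcript began within 100 bases of the start whose window had most CG. Of the members, 13 had several start sites among these promoters, and those not named here are not described. A relation of CG to level was not tested, and 2 chosen genes cannot show one. Strand was not stated for the counting, and Gcnt2 and Galnt11 have exons that overlap an antisense gene.

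**Figure D2:**
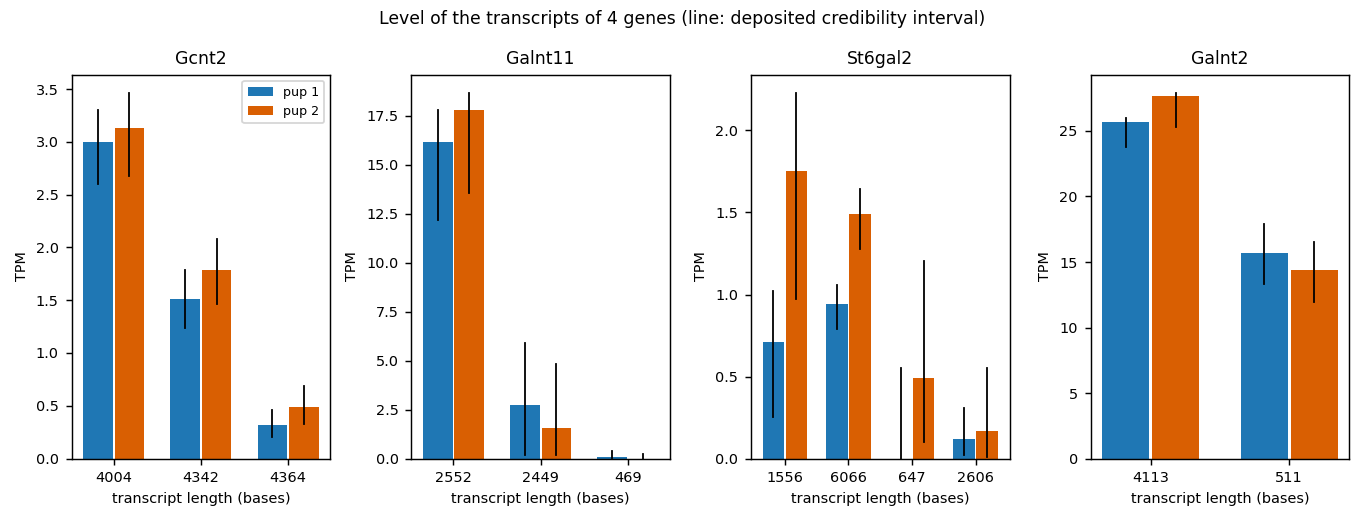
Level in TPM of the transcripts of Gcnt2, Galnt11, St6gal2 and Galnt2, by transcript length, in pup 1 (blue) and pup 2 (orange); bars start at 0, black lines are the deposited credibility intervals and transcripts with a mean TPM of 0.02 or less are left out. The Gcnt2 transcripts keep their order in both pups, and in St6gal2 only the 6066-base transcript has intervals that are apart between the pups.

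The 20 B3gnt, B4galt and B3galt genes (all but B3gnt6) were grouped with chain extension by family name. Several act mainly on glycolipids or on the proteoglycan linker. Together the 20 genes held 28.2% and 27.8% of the summed TPM, and 18 were detected. B3gnt3, which adds GlcNAc to core 1 and so lengthens its arm, led them at 36.3 TPM in pup 1 and 36.7 TPM in pup 2. B3gnt2, the main enzyme of long chains of repeated galactose and GlcNAc, had 14.7 and 12.4. B3gnt3 stood 2.47 times above B3gnt2 in pup 1 and 2.95 times in pup 2, with the intervals apart in each, and 182 and 167 times above B3gnt6. B3gnt9, whose acceptor is little known, had 12.7 and 13.2. B3gnt7, known from keratan sulfate chains, had 7.96 and 9.33 and its intervals did not overlap between the pups. The glycolipid enzyme B3gnt5 (5.48 and 4.85), B3gnt8, which supports B3gnt2 (5.24 and 4.66), and B3gntl1 (2.84 and 3.60) were lower, and B3gnt4 was at 0.11 in both pups.

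All 7 B4galt genes, which add galactose to GlcNAc, were detected. B4galt1, the best known of them and also a subunit of lactose synthase in the mammary gland, stood at 29.5 TPM in pup 1 and 30.0 TPM in pup 2. B4galt3 had 29.3 and 28.1, and its intervals overlapped those of B4galt1 in the pups, so which of these genes led was not determined at the level of whole genes. In transcripts annotated as coding, B4galt1 stood 1.43 times above B4galt3 in pup 1 and 1.63 times in pup 2. Next came B4galt7 (13.8 and 13.7), which works on the proteoglycan linker, B4galt2 (10.2 and 10.4) and B4galt4 (7.95 and 7.84). The lactosylceramide synthases B4galt5 and B4galt6 were the lowest of the family, at 3.82 and 5.04 and at 3.10 and 3.28. In the B3galt family, B3galt4, a ganglioside enzyme, led with 13.1 and 12.96. B3galt5, which makes the type 1 chains found in gut epithelium, had 7.46 and 9.09, with intervals that did not overlap between the pups. The linker enzyme B3galt6 had 7.74 and 8.03, B3galt1 1.77 and 1.72, and B3galt2 was not detected at 0.11 and 0.13.

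The 8 fucosyltransferase (Fut) genes held 9.45% of the summed TPM in each pup, and 6 were detected. Fut8, which places the core fucose of N-glycans, was highest, at 23.1 TPM in pup 1 and 22.4 TPM in pup 2. Fut2, the secretor enzyme that makes the H antigen on mucous epithelia, had 17.4 and 19.4. Fut1, which makes the same antigen in other cells and lies 27.5 kb from Fut2 on chromosome 7, had 1.23 and 1.51. Between these genes of H antigen synthesis, the secretor gene had most of the transcript, with Fut2 14.2 times above Fut1 in pup 1 and 12.9 times in pup 2. The Fut2 intervals, 16.4 to 17.9 in pup 1 and 18.4 to 19.97 in pup 2, were apart, at a log2 ratio of 0.15. Of the enzymes that make Lewis x type structures, Fut4 had 13.1 and 12.7. Fut9 had 0.51 and 0.73, which places Fut4 25.7 and 17.4 times higher. Fut7, the enzyme of leukocyte selectin ligands, had 1 count in pup 1 and 4 in pup 2. Fut11 (11.5 and 11.0) and Fut10 (4.48 and 5.05), relatives with less certain roles, were detected.

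The 14 sialyltransferase genes held 11.5% and 12.1% of the summed TPM, and 12 were detected. St6galnac2, which adds sialic acid to the GalNAc at the base of O-glycans, led at 18.9 TPM in pup 1 and 22.5 TPM in pup 2, and its intervals (17.5 to 20.3 and 20.9 to 24.1) were apart. St6galnac1, the enzyme known for sialyl-Tn, had 0 counts in pup 1 and 1.22 in pup 2, although it lies only 70.2 kb from St6galnac2 on chromosome 11. The zero in pup 1 allows a TPM of up to 0.0316. Of this neighbouring pair only St6galnac2 was detected. St6galnac6 (7.78 and 9.64) and St6galnac4 (6.56 and 6.25), which prefer acceptors that already carry sialic acid, lie 11 bases apart on chromosome 2. St6galnac3 had 2.48 and 2.70, and St6galnac5, a brain ganglioside enzyme, was not detected at 0.49 and 0.34.

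Among the St3gal genes, St3gal5, which makes the ganglioside GM3, stood highest, at 12.2 TPM in pup 1 and 11.5 TPM in pup 2. St3gal4, which caps chains of galactose and GlcNAc, had 11.2 and 10.8, and its intervals overlapped those of St3gal5. The enzymes that sialylate core 1 stood lower: St3gal2 had 6.06 and 6.29. St3gal1 had 1.14 and 1.46, which places St3gal5 10.7 times above it in pup 1 and 7.86 times in pup 2. St3gal6 had 6.61 and 5.92 and St3gal3 2.74 and 2.60, both of them enzymes of galactose and GlcNAc chains. For St3gal6 the deposited point estimate of pup 2 lay outside its own interval of 6.01 to 8.23, which also happened in Galntl5, Fut7 and St6galnac1. St6gal1, the main enzyme of sialic acid on N-glycans, had 8.80 and 9.36.

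A4gnt, which caps the chains of the gland mucin Muc6 with GlcNAc, stood at 3.90 TPM in pup 1 and 3.73 TPM in pup 2. B4galnt2, which makes the Sda antigen of gut epithelium, had 3.94 and 3.05. These genes together held 1.04% and 0.878% of the members' sum, and their order differed between the pups, with overlapping intervals in each. Gcnt3 stood 16.8 and 18.7 times above A4gnt.

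Among the 25 members with the highest mean, 7 of the 24 pairs of neighbours in rank had intervals apart in both pups. By the level of the whole gene these were Gcnt3 above Galnt12, Galnt12 above C1galt1c1, Galnt2 above B3gnt3, B3gnt3 above Galnt1, B4galt3 above Galnt7, Galnt7 above Fut8, and Galnt18 above B4galt7. By coding transcripts alone, 5 of these 7 kept their order in both pups and 2 turned: Galnt2 (25.7 and 27.7) stood below B3gnt3 (36.3 and 36.7), and B4galt3 (20.7 and 18.4) below Galnt7 (25.4 and 24.6). All other neighbours, such as C1galt1c1 and Galnt2, did not differ beyond their intervals in at least 1 pup.

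Members were close in the pups: the median log2 ratio (with 1 added to each TPM, pup 2 over pup 1) was 0.02 over the 56 members whose mean TPM reached 1, with 30 higher and 26 lower in pup 2. It was 0.03 over 13339 protein-coding genes at that level, and with counts scaled by the median of ratios between the libraries the members' median became -0.03. The middle 95% of members lay between -0.23 and 0.31, and that of protein-coding genes between -0.35 and 0.38. Of the 58 members with a mean count of at least 100, 9 (15.5%) had intervals that did not overlap, 8 of them higher in pup 2, beside 21.6% of 13243 protein-coding genes. Those 9 were Gcnt3, Fut2, St6galnac2, B3gnt7, B3galt5, B3gntl1, St3gal1 and St6gal2, higher in pup 2, and Galnt6, lower. A share below that of all protein-coding genes makes non-overlap no mark of these members.

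**Figure D3:**
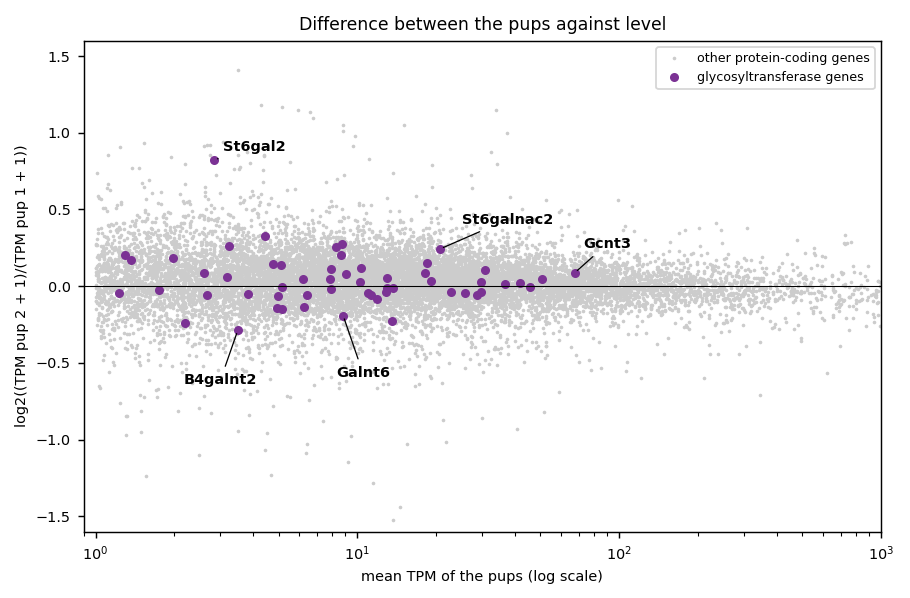
Log2 ratio of pup 2 over pup 1 (1 added to each TPM) against the mean TPM (log scale), for glycosyltransferase genes whose mean TPM reached 1 (purple, n = 56) and other protein-coding genes (grey, 13161 shown and 122 beyond the axes). St6gal2 stands apart from the other members at 0.82, and the others lie between -0.29 and 0.33.

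A gene was counted as different between the pups on 3 conditions: intervals apart, a TPM ratio of 1.5 or more, and 100 or more expected counts on average. This left 1 member higher in pup 2 and 0 lower, while 1.08% of 13951 genes were higher and 0.552% lower. At 2-fold it was again 1 member, with 0.423% of genes. The member was St6gal2, an enzyme of sialic acid on chains of galactose and GlcNAc that is best known from brain, on chromosome 17 from 55445382 to 55514581 on the plus strand. Its level was 1.77 (interval 1.52 to 2.33) in pup 1 and 3.90 (3.33 to 4.62) in pup 2, from 287 and 482 expected counts. The ratio in TPM was 2.20, and 1.93 by coding transcripts alone. As a share of all counts of the library, which does not use transcript length, the ratio was 1.73 (exact binomial interval 1.49 to 2.01, counting error only). Its relative St6gal1 stood 4.97 times above it in pup 1 and 2.40 times in pup 2, but by coding transcripts alone the ratio was 1.63 in pup 1 and turned to 0.880 in pup 2.

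Only the 6066-base transcript of St6gal2 had intervals apart between the pups, so how the difference divides over transcripts was not determined. The 6066-base transcript stood at 0.94 TPM (0.789 to 1.06) in pup 1 and 1.49 TPM (1.28 to 1.64) in pup 2. The 1556-base transcript had 0.71 and 1.75, with overlapping intervals. The 647-base transcript was listed at 0 in pup 1 and at 0.49 in pup 2. The longest transcript made up 53.2% of the gene's TPM in pup 1 and 38.3% in pup 2. The 8 liver genes looked at were also all higher in pup 2 by the same rule, but they were chosen after their values were seen, so their number tests nothing. Their summed TPM was 101 in pup 1 and 196 in pup 2, none was at 0, and Alb had 20.2 and 33.98. Muscle genes were lower in pup 2 (Acta2 at 3358 and 2921, Myh11 at 202 and 166) and parietal cell genes higher (Atp4a at 519 and 598, Atp4b at 690 and 845). The part of these shifts in the St6gal2 difference was not tested.

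Of the 56 detected members, 20 have 1 annotated transcript and 36 have several. In 30 of the 36 the same transcript was the main one in both pups, and the exceptions were Fut10, Galnt6, Gcnt1, St3gal3, St6gal2 and St6galnac4. The main transcript held a median of 67.7% of a gene's TPM, more than 90% in 9 genes and less than 50% in 7. In Galnt6, the 3796-base and 3798-base transcripts share a start and changed places, at 4.09 and 5.37 in pup 1 and 4.93 and 3.24 in pup 2. Their intervals were wide and overlapped, so this exchange was within the error of dividing reads.

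Not all of the gene level stood for coding transcript. In 7 genes, less than 80% of the TPM was from transcripts that GENCODE M21 annotates as coding in at least 1 pup: B3gnt5, B4galt3, B4galt4, Galnt2, St6gal1, St6galnac2 and St6galnac4. For St6gal1 the main transcript was a 476-base noncoding one with 39.3% and 37.5% of the TPM, and the coding TPM was 2.89 of 8.80 in pup 1 and 3.0 of 9.36 in pup 2. A 627-base St6gal1 transcript at 2.45 and 2.86 has no entry in M21 and was counted as not coding. A 511-base noncoding transcript took 15.7 and 14.4 of the TPM of Galnt2. The coding TPM of Galnt2 was 25.7 in pup 1 and 27.7 in pup 2, below the gene level of Galnt4. The second place of Galnt2 in its family thus rested on a short noncoding transcript, while all 56 detected members also reached a TPM of 1 by coding transcripts alone. For St6galnac2, coding transcripts gave 77.1% and 72.5%. Exons of 29 members overlap another annotated gene entry, so part of their reads could belong to that entry. The overlap was on the same strand in 5 (Galnt2, Galnt4, B3gnt2, B4galt2 and St6galnac2) and on the opposite strand in 28, with some counted in both. For St6galnac2 the overlapping entry on the same strand bears the same symbol. Of the 42 members without such overlap, 33 were detected, among them Gcnt3, Galnt12, C1galt1c1, Fut2 and St6gal2.

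In 5 lists of other genes of glycan synthesis, drawn up by function, 0 genes met the rule of difference between the pups in either direction. Of all 13951 genes with enough counts, 1.08% were higher and 0.552% lower in pup 2, so 0 in such short lists is no mark of them. Of 13 mucin symbols 11 were found and 7 were detected, with a median TPM of 2.51 in pup 1 and 2.89 in pup 2. Muc1, a membrane mucin of epithelial surfaces, led with 186 and 223. Muc5b, a secreted gel-forming mucin, had 114 and 105. The gland mucin Muc6 had 11.7 and 9.68, and Muc5ac, the gel-forming mucin of adult surface cells, had 2.51 and 2.89. Muc1 and Muc5b thus stood above the mucins best known from the adult surface and glands. Genes that supply activated sugars stood above the transferases: all 19 genes of nucleotide sugar synthesis were detected, with a median of 28.3 and 31.1. Among the highest of them were Ugp2, which makes UDP-glucose (107 and 110.2), and the galactokinase Galk1 (108 and 102).

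All 9 transporters that carry nucleotide sugars and the sulfate donor into the Golgi were detected, with a median of 24.4 and 22.1. The sulfate donor transporter Slc35b2 had 40.5 and 43.3, the GDP-fucose transporter Slc35c1 30.9 and 35.8, and the CMP-sialic acid transporter Slc35a1 33.9 and 32.0. Of the 22 genes for other glycan ends and sulfation, 10 were detected, with a median of 1.05 and 1.06. They were led by B4galnt1, a ganglioside enzyme (35.0 and 50.1), Gal3st1, which makes sulfatide (37.4 and 44.8), and B3galnt1, which makes globoside (18.5 and 19.8). Several of the named list genes had intervals that did not overlap between the pups, at less than 1.5-fold. B4galnt1, Gal3st1, Slc35b2, Slc35c1, Muc1 and Muc5ac were higher in pup 2, and Galk1, Man1a2, Muc5b and Muc6 lower. Over all protein-coding genes with a mean count of at least 100, the share without overlap was 21.6%. Of the 13 genes that trim and branch N-glycans, 12 were detected, with a median of 9.10 and 9.17, led by Mgat2 (44.9 and 46.7), Man1a2 (43.7 and 31.9) and Mgat1 (37.4 and 36.8). The plot of these lists places the transferases between the end-modifying genes and the sugar-supplying genes.

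**Figure D4:**
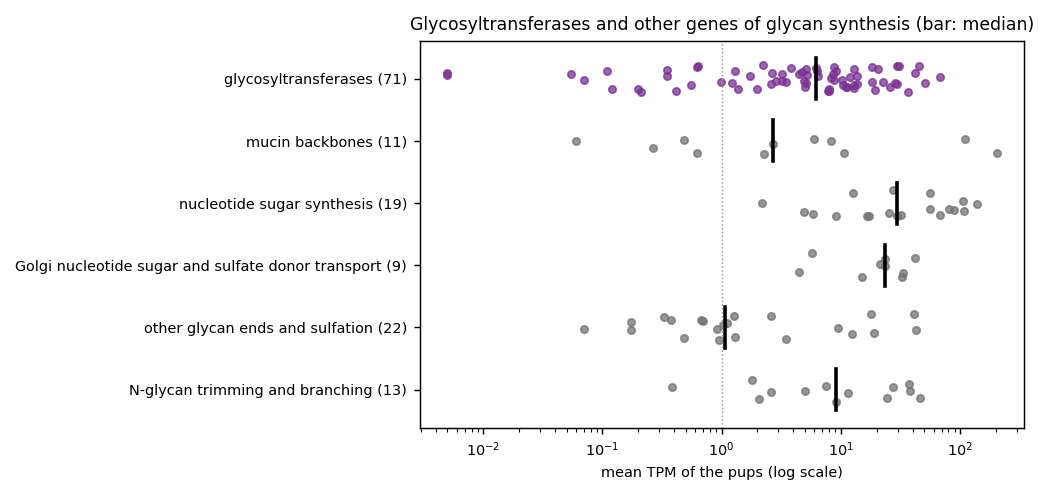
Mean TPM of the pups (log scale) of the 71 glycosyltransferase genes (purple) and of the genes of 5 other lists (grey), each point 1 gene; black bars are list medians, the dotted line is a TPM of 1, genes at or below 0.005 are drawn at 0.005 and vertical scatter has no meaning. The median of nucleotide sugar synthesis lies above that of the transferases, and Muc1 and Muc5b are the highest points of the mucin list.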

How the data were processed

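Total RNA of 2 stomachs was analysed from 1 gene table and 1 transcript table per pup, on mm10 with GENCODE M4, per the text files deposited alongside. Aligner, quantification program, versions and strandedness were not given in the sources used here. RSEM writes columns of these names. The authors deposited expected counts, an estimate of reads per gene without scaling in which reads shared between genes are divided. The TPM values the authors deposited are scaled for effective length and to a common total. The FPKM values the authors deposited served only as an alternative. Isoform shares were deposited by the authors as a percent of the gene's TPM. The level of the deposited credibility intervals is not stated and was taken as 95%, the default of that program. A listed TPM could lie above its own interval, as for Muc5b in pup 1, or below it, as for St3gal6 in pup 2.

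Symbols, gene types and positions are those of the later GENCODE M21 on the same assembly, which matched 42462 of 43346 Ensembl genes. Promoter sequences are RefSeq's for GRCm38.p6. Detection required that neither pup had a TPM below 1. A pseudocount of 1 was added in log2 ratios, which understates differences of low genes. The rule of difference needed intervals apart, 1.5-fold and a mean count of 100. It was tried on simulated counts with counting error alone, planted changes larger than 1.5-fold and intervals other than the deposited ones. Such counts hold no difference between animals, so the trial cannot tell how often the rule calls genes between 2 pups. A count of 0 allows up to 3 counts, and such limits cover counting error only, since PCR copies are not independent molecules. Full values were given for the 25 members with the highest mean TPM, the top of each family, every member that differed at 1.5-fold, and C1galt1, C1galt1c1, Gcnt1, Gcnt3, B3gnt6, Fut1, Fut2, A4gnt, B4galnt2 and St6galnac1. In other lists the top 3 genes and Muc1, Muc5ac and Muc6 were named. Values of 1 such gene are not reported here. Members, lists and rules were chosen with earlier results of these data known, and the liver genes and the start sites shown were chosen after their values were seen. Other settings tried were thresholds, folds, scaling, posterior means and single pups. Python 3.11.15, pandas 2.3.3, numpy 2.4.6, scipy 1.17.1 and matplotlib 3.10.9 were used.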

Additional observations from a re-analysis of the deposited data

How the results depend on the processing

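The number of detected members was 56. It was 67 at a TPM of at least 0.1, 37 at a TPM of at least 5, and 55 to 56 by the lower bound of the interval or the posterior mean. It was 33 among the 42 members without exon overlap, an alternative chosen after seeing the data in which fewer genes are counted. Leaving out a pup gave 56 to 57. The 1 member that differed between the pups, St6gal2, was the only one under every alternative but the 1.2-fold limit, which gave 4: B3galt5, B3gntl1, St3gal1 and St6gal2. The members' median log2 ratio of 0.02 ranged from -0.03 (median-of-ratios counts, with all protein-coding genes at -0.02) to 0.02. The median member level of 5.99 was 6.37 by the posterior mean, for which the cause was not tested, and 5.92 to 6.06 with 1 pup left out. All 10 families with several members kept their leader without either pup, and 9 kept it by the posterior mean, with B4galt3 in place of B4galt1 as the exception. The main transcript of 30 genes was shared by the pups, and of 31 by the posterior mean; with 1 pup left out, 32 to 34 of 36 genes kept theirs. Of the levels of the 25 highest members, 19 differed by less than the spread between pups when the posterior mean was used and 6 by more. By coding transcripts alone, an alternative chosen after seeing the data, all 10 families kept their leader by mean level; summed coding levels have no deposited interval. No paired analysis was possible because there is 1 group and no contrast. With 2 littermates, the spread between animals rests on 2 values per gene, and genes with a TPM under 1 rest on few counts.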
